A study of Mus musculus with 8 samples.

Results

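Mitochondrial ribosomal protein genes encode the protein subunits of the mitoribosome, the ribosome that translates the few proteins encoded by mitochondrial DNA. They are nuclear genes. Their products are made in the cytosol, imported into mitochondria and joined there to ribosomal RNA that mitochondrial DNA encodes. The proteins that the finished particle makes are subunits of the respiratory chain and of the ATP synthase. Genes were taken as members when their symbol consisted of Mrpl or Mrps, a number and at most 1 further letter. This rule found 77 genes among the 16896 in any of the 4 tables analysed, and all 77 stood in all 4 tables with an adjusted p. Of these, 50 encode proteins of the large subunit and 26 of the small subunit, and Mrps36 was left unassigned because its product has also been described as a part of the 2-oxoglutarate dehydrogenase complex. The symbol does not always give the subunit, since Mrps18a and Mrps30 belong to the large one.

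The study measured newly made RNA by TT-seq, in which 4-thiouridine, a uridine analogue, marks transcripts made during a short pulse, here 500 nM for 5 min. The cells were E14 (ES-E14TG2a), a male mouse embryonic stem cell line, with the K122A change (lysine to alanine) in histone H3.3, an H3 variant placed into chromatin outside replication and encoded by H3f3a and H3f3b. The dual-targeted group had 3 libraries, 2 of them from clones that are H3f3a A/A H3f3b WT/A (the A/A-WT/A clones) and 1 from a line that is H3f3a WT/A H3f3b A/A (the WT/A-A/A line), all with 3 of 4 alleles mutant. The single-targeted group had 2 libraries, 1 from a line homozygous at H3f3b (H3f3a WT/WT H3f3b A/A) and 1 from a line homozygous at H3f3a (H3f3a A/A H3f3b WT/WT), both with 2 of 4 alleles mutant, and wildtype cells gave 3 libraries labelled as biological replicates. Each of the 5 mutant lines was sequenced once, so replicate spread in mutant groups comes from different lines, each of which went through targeting. Whether these libraries came from LIF medium or from LIF medium with 2 inhibitors is not said in the labels, which describe both.

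Values per library were not used here, and the depth of each library is unknown. The files hold the authors' own comparisons, with the authors' mean of normalized counts in each comparison, a shrunken log2 fold change with its standard error (SE), a p and an adjusted p. The mean normalized count of the members ran from 35.6 for the lowest to 2397 for the highest, with a median of 236, in the authors' deposited table of dual-targeted against wildtype. Group levels given below as rebuilt means were computed by subtraction from the deposited means and carry no error. They are on a normalized count scale, with dual-targeted lines, single-targeted lines and the clones each scaled to a median log2 ratio of 0 over wildtype. The WT/A-A/A line follows by subtraction, with a median of -0.01 over the genes used for scaling. In bulk RNA, fewer cells making a transcript and less of it made per cell cannot be told apart. Embryonic stem cell markers were present for 9 of 9 listed genes, with summed rebuilt means of 21941 in dual-targeted, 17671 in single-targeted and 17419 in wildtype cells. Of these 9, 7 had a log2 fold change above 0 and 2 below 0 in dual-targeted lines against wildtype. Of 10 feeder or fibroblast markers only Fn1, Vim, Thy1 and Pdgfrb had rows, while the collagen genes Col1a1, Col1a2 and Col3a1 and Postn, Dcn and Lum had none. The 4 had summed rebuilt means of 4859 in dual-targeted, 6811 in single-targeted and 9635 in wildtype cells. They did not move together, since 2 had a log2 fold change above 0 and 2 below 0 in dual-targeted lines against wildtype. These fold changes ran from -1.01 to 0.72, and the part of the 4 markers in the results was not tested.

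Promoters are shown because the members lie scattered over the genome, and TT-seq reports on transcription, which starts there. RefSeq held a promoter entry, of 250 bases before to 50 bases after the start, for 68 of the 77 genes (build GRCm38.p6). Printed below are bases 250 to 21 before the start for 4 genes that were higher in dual-targeted lines and for Mrpl42, which had the lowest fold change among members with no annotated exon in that window apart from Mrps36. Those 4 had the lowest adjusted p among the 22 members with at most 12 annotated exonic bases in the 250 before the start. Capitals mark matches on either strand to 8 short motifs. GCATGCG is searched for NRF1, a regulator of nuclear genes for mitochondrial proteins. CCGGAAG is the core that ETS factors such as GABP bind. AGATGGC stands for YY1, a factor that often binds close to the start. ACTACAA stands for ZNF143. CACGTG is the E-box, bound by Myc and its relatives. GGGCGG is the GC box, a site of Sp factors, and the CCAAT box and the TATA box (TATAAA) are classical promoter elements. The windows are chr7:105811108-105811337 on the minus strand for Mrpl17, chr2:28467816-28468045 on the plus strand for Mrps2, chr4:155802628-155802857 on the plus strand for Mrpl20, chr11:58171414-58171643 on the plus strand for Mrpl22 and chr10:95501970-95502199 on the minus strand for Mrpl42.
Mrpl17: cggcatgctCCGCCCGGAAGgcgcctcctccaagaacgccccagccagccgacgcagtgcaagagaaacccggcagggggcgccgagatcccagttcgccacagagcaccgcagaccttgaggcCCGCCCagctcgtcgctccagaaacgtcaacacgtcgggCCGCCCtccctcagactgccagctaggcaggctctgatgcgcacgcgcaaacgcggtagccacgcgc
Mrps2: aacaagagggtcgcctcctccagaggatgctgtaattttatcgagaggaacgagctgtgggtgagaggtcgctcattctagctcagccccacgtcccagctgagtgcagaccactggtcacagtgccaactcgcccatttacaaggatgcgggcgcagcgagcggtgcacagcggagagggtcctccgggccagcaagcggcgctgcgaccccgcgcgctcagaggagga
Mrpl20: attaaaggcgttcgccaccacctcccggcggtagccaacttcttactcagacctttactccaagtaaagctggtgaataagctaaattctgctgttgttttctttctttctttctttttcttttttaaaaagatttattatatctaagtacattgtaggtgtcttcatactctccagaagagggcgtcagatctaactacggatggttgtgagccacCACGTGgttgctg
Mrpl22: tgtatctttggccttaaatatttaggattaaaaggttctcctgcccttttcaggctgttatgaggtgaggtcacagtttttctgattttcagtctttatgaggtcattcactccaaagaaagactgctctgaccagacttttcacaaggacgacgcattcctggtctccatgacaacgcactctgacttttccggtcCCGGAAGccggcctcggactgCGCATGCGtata
Mrpl42: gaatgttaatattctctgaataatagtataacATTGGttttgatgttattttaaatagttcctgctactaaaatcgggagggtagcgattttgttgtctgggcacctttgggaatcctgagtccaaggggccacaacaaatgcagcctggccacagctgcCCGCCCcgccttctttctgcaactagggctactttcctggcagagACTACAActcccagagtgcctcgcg

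These 5 windows had little in common in the letters searched. Mrpl17 had an ETS match 237 bases before the start, overlapping a GC box match on the other strand. Mrpl22 had an ETS match 53 bases before the start and, in its last capitals, overlapping NRF1 matches on both strands. Mrpl20 held an E-box 33 bases before the start, Mrps2 held none of the 8 motifs, and Mrpl42 held a CCAAT box, a GC box and the ZNF143 letters.

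Over the whole promoter entry, the ETS letters, which GABP and related factors can bind, stood in 25 of 68 member promoters (36.8%, exact 95% interval 25.4 to 49.3%, for counting error only), against 20.0% of 10701 genes of the dual-targeted table and 41.1% of 56 cytosolic ribosomal protein genes. They stood in 5 of 14 promoters of genes higher in dual-targeted lines and in 20 of 54 of the others, so they did not separate members by their change. The NRF1 letters stood in 8 of 68 (11.8%, exact interval 5.22 to 21.9%, against 7.36% of genes of the table). Of these, 4 were among the 14 higher genes, in Mrpl17, Mrpl22, Mrpl39 and Mrps18b, and 4 among the other 54. The YY1 letters stood in 12 of 68 (17.6%, exact interval 9.47 to 28.8%, against 8.42%), of which 1, in Mrpl36, was among the higher genes. E-boxes stood in 5 of 68 (7.35%, against 11.8%), of which 3, in Mrpl20, Mrpl36 and Mrps18c, were among the higher genes. The GC box was in 50.0% of member promoters against 68.9%, the CCAAT box in 38.2% against 43.3%, the TATA box in 7.35% against 8.46%, and the ZNF143 letters in 7.35% against 4.68%. A match describes letters in a window and was not set against binding data.

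Every mitochondrial ribosomal protein gene called in dual-targeted lines against wildtype was higher in the mutant lines, and most others had a small positive fold change. Calls were made where the adjusted p was below 0.05. In the authors' deposited table, 15 of 77 members were higher and none lower (19.5%), while 20.9% of all 16493 genes tested were called, 10.8% higher and 10.1% lower. The share called is thus near that of all genes, and the direction is not. The log2 fold change was above 0 for 65 members and below 0 for 12, and its median over members was 0.26, with quartiles at 0.10 and 0.42, against 0.0057 over all genes of that deposited table. At an unadjusted p under 0.05, 25 members were higher and 1 lower. Large subunit genes had a median of 0.26 with 11 of 50 higher, and small subunit genes a median of 0.27 with 4 of 26 higher. Members of protein families shared with bacterial ribosomes had a median of 0.23 with 11 of 45 higher, and those found in mitochondrial ribosomes only a median of 0.30 with 3 of 28 higher.

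**Figure D1:**
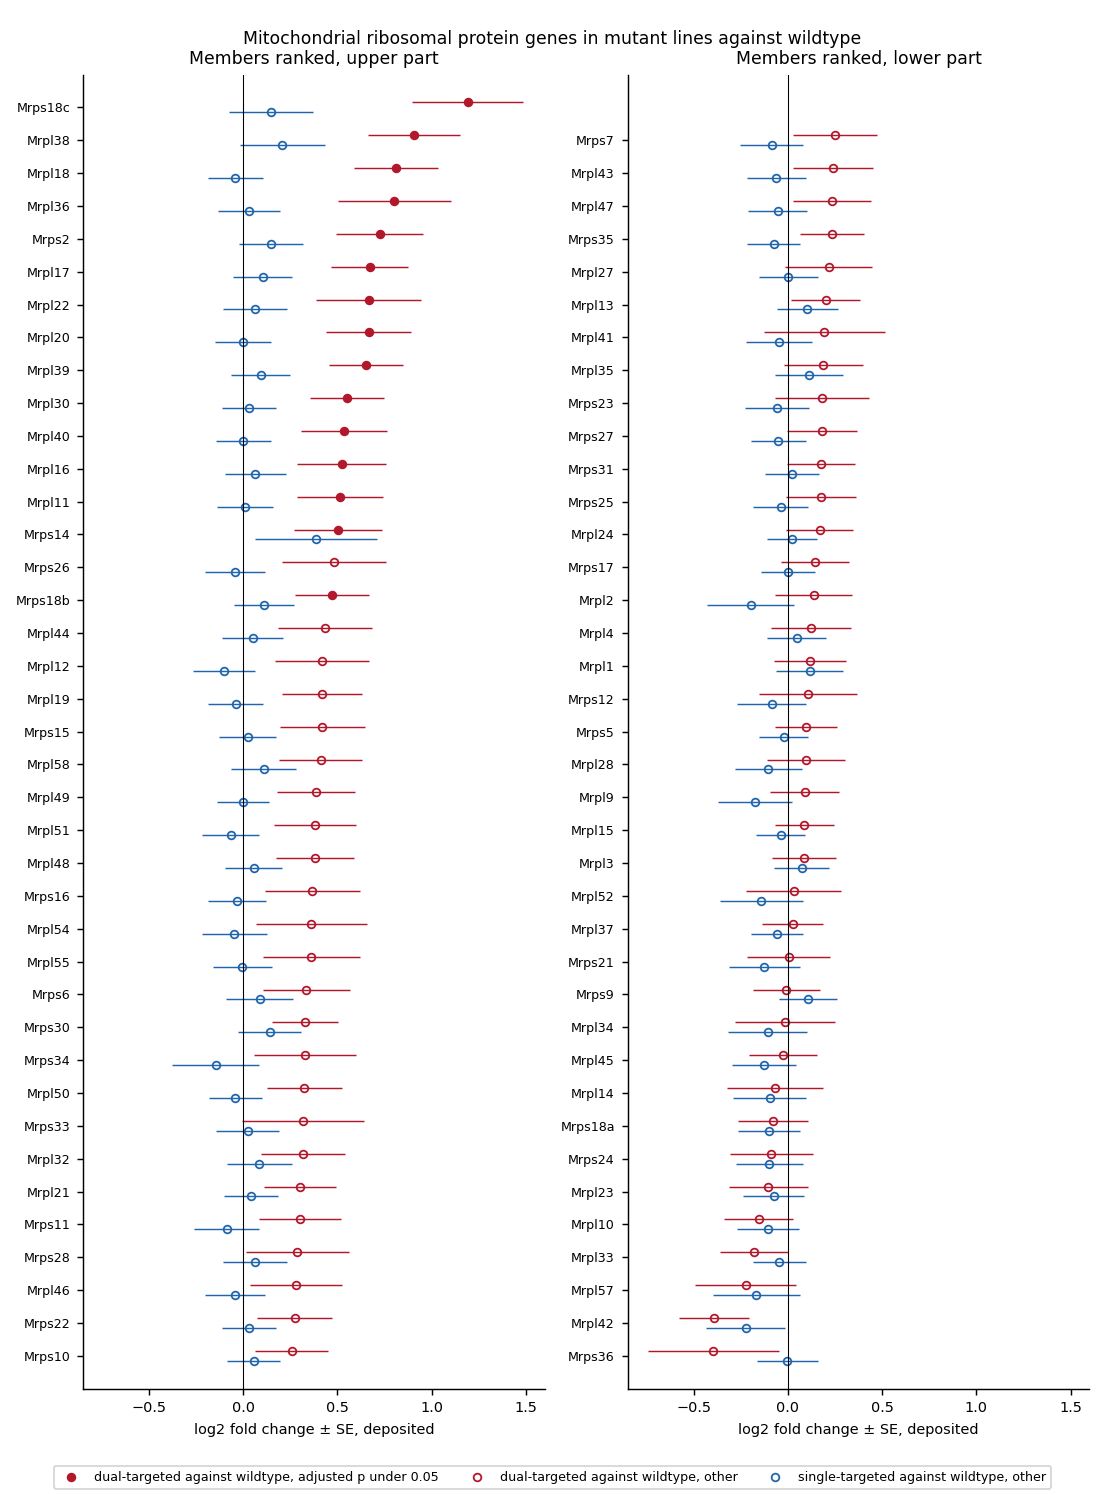
Log2 fold change with its standard error (horizontal axis), from the authors' deposited tables, for each of the 77 members, ranked by the dual-targeted value (red) and with the single-targeted value below it (blue). Filled points have an adjusted p under 0.05: 15 dual-targeted values and no single-targeted value are filled, and the dual-targeted points run from -0.40 for Mrps36 to 1.19 for Mrps18c.

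The largest rise was in Mrps18c (ENSMUSG00000016833, chr5:100798627-100804471), a small subunit gene of the bS18 family. Its rebuilt mean was 209 in the 2 clones, 193 in the WT/A-A/A line and 120.5 in single-targeted lines, against 83.4 in wildtype cells. Both dual-targeted genotypes thus stood above single-targeted and wildtype cells. Here and for the called members below, the call rests on these same libraries, so levels above wildtype are no separate support for it. The authors' deposited table of dual-targeted against wildtype gave a log2 fold change of 1.19 ± 0.30 (SE) with an adjusted p of 1.29e-04. The family is a natural comparison, because mammalian mitochondria carry 3 relatives of the bacterial S18 protein. Mrps18b, whose protein mS40 also sits in the small subunit, was higher by 0.47 ± 0.20 (adjusted p 0.036), and Mrps18a, whose protein mL66 sits in the large subunit, had -0.08 ± 0.19 (adjusted p 0.77), in the authors' deposited table. Rebuilt means of Mrps18a were 269 in dual-targeted, 244 in single-targeted and 292 in wildtype cells. Mrps18b and Mrps18c thus passed and Mrps18a did not, and the difference between the relatives was not tested.

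In the large subunit, the called members with the lowest adjusted p were Mrpl38 and Mrpl18, and Mrpl40 was called nearer to the threshold. Mrpl38 (chr11:116131817-116138868) had rebuilt means of 333 in the clones, 278 in the WT/A-A/A line, 217 in single-targeted lines and 158 in wildtype cells. Mrpl18 (chr17:12911349-12916345), of the uL18 family that binds ribosomal RNA in bacteria, had 552 in the clones, 455 in that line and 262 in single-targeted lines, against 281 in wildtype cells. Mrpl40 had 292 in the clones, 254 in that line and 182 in single-targeted lines, against 181 in wildtype cells. Single-targeted cells lay between the others for Mrpl38 and beside wildtype for Mrpl18 and Mrpl40. The authors' deposited table gave log2 fold changes in dual-targeted lines of 0.91 ± 0.24 for Mrpl38 (adjusted p 5.32e-04), 0.81 ± 0.22 for Mrpl18 (8.07e-04) and 0.54 ± 0.23 for Mrpl40 (0.034).

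Among genes for proteins around the tunnel through which the new peptide leaves, some passed and some did not. Mrpl17 (chr7:105803206-105811099), of the bL17 family, had the highest rebuilt means of the called members, with 1712 in the clones, 1350.2 in the WT/A-A/A line and 1128 in single-targeted lines, against 957 in wildtype cells. Mrpl22 (chr11:58171661-58179565), of the uL22 family that lines the tunnel, had 122 in the clones, 113 in that line and 83.1 in single-targeted lines, against 69.2 in wildtype cells. Both rose in dual-targeted lines by the authors' deposited table, by a log2 fold change of 0.67 ± 0.20 for Mrpl17 (adjusted p 0.0028) and 0.67 ± 0.28 for Mrpl22 (0.023). Mrpl23 and Mrpl24, of the uL23 and uL24 families at the tunnel exit, did not pass, with -0.10 ± 0.21 and 0.17 ± 0.18 in the authors' deposited table (adjusted p 0.73 and 0.497). At the stalk and its base, where translation factors dock, Mrpl11 was higher by 0.51 ± 0.23 (adjusted p 0.041) in the authors' deposited table. Mrpl10 had -0.15 ± 0.18 (0.54) and Mrpl12, of the bL12 family, 0.42 ± 0.25 (0.13) in the authors' deposited table.

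The other called large subunit genes were Mrpl36, Mrpl20, Mrpl39, Mrpl30 and Mrpl16. Mrpl36 (chr13:73328513-73332178), which encodes a very small protein of the bL36 family, had 93.0 in the clones, 109.5 in the WT/A-A/A line and 57.7 in single-targeted lines, against 51.5 in wildtype cells. Mrpl20 (chr4:155802878-155809975), of the bL20 family that acts early in assembly in bacteria, had 337 in the clones, 307 in that line and 194 in single-targeted lines, against 193 in wildtype cells. Mrpl39 (chr16:84717576-84735742), a mitochondrial protein related to threonyl-tRNA synthetase, had 619 in the clones, 591 in that line and 436 in single-targeted lines, against 373 in wildtype cells. In each of these genes, called on the same libraries, both dual-targeted genotypes stood above single-targeted and wildtype cells. In dual-targeted lines the authors' deposited table gave log2 fold changes of 0.80 ± 0.30 for Mrpl36 (adjusted p 0.0098), 0.66 ± 0.23 for Mrpl20 (0.0072), 0.65 ± 0.20 for Mrpl39 (0.0028), 0.55 ± 0.20 for Mrpl30 (0.013) and 0.52 ± 0.23 for Mrpl16 (0.042). Mrpl30 and Mrpl16 are of the uL30 and uL16 families.

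In the small subunit, Mrps2 (chr2:28468066-28471178), of the uS2 family, had rebuilt means of 857 in the clones, 687 in the WT/A-A/A line and 561 in single-targeted lines, against 458 in wildtype cells. Its log2 fold change in dual-targeted lines was 0.72 ± 0.23 (adjusted p 0.0037) in the authors' deposited table. Mrps14, of the uS14 family, was the only called member whose single-targeted level was as high as its dual-targeted one. It had 267 in the clones, 224 in the WT/A-A/A line and 265 in single-targeted lines, against 168 in wildtype cells, and a log2 fold change of 0.50 ± 0.23 (adjusted p 0.049) in the authors' deposited table of dual-targeted against wildtype. Genes at the threshold were close to it on both sides. Just inside were Mrpl11, Mrpl16 and Mrps14 with adjusted p of 0.041, 0.042 and 0.049, and just outside were Mrpl42, Mrpl19 and Mrps26 with 0.072, 0.082 and 0.099, in the authors' deposited table.

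**Figure D2:**
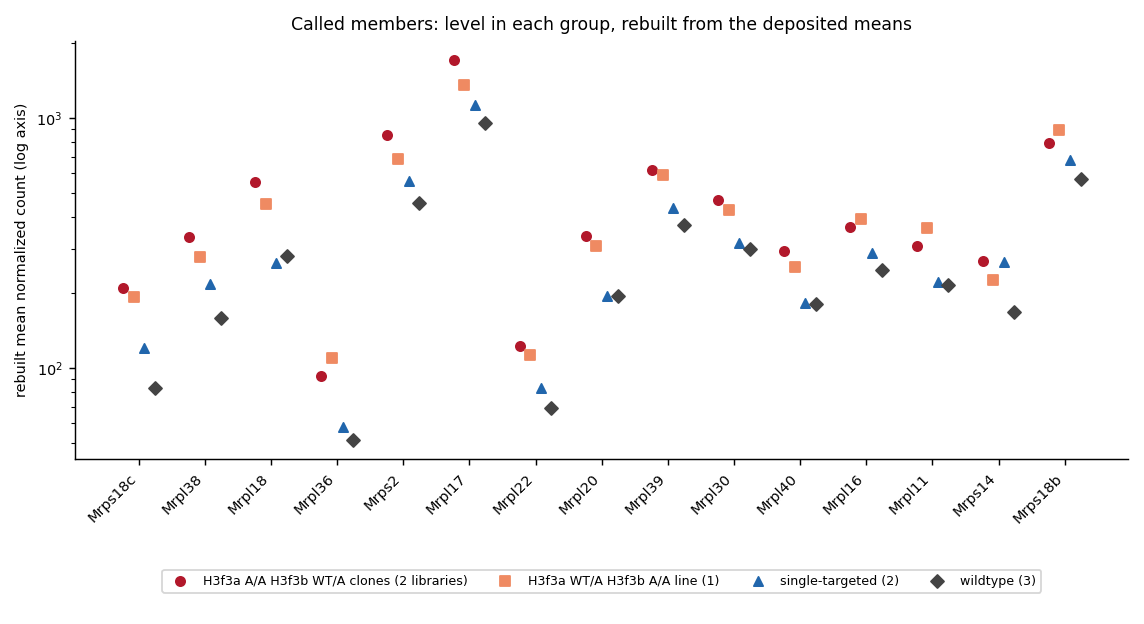
Rebuilt mean normalized count (vertical log axis, no error available) of the 15 members called in dual-targeted lines, in the 2 clones, the WT/A-A/A line, the 2 single-targeted lines and the 3 wildtype libraries. Clones and line stand above wildtype for all 15, which were called as higher in these same libraries. For Mrps14 the single-targeted level of 265 lies beside the clones at 267.

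At the other end, no member passed as lower. Mrps36 had rebuilt means of 28.4 in dual-targeted and 44.3 in single-targeted lines, against 44.4 in wildtype cells. Mrpl42, a large subunit protein found in mitochondria only, had 571 in dual-targeted and 594 in single-targeted lines, against 786 in wildtype cells, so both mutant groups lay below wildtype. The log2 fold changes of dual-targeted against wildtype in the authors' deposited table were -0.40 ± 0.35 for Mrps36 (adjusted p 0.23), -0.39 ± 0.19 for Mrpl42 (0.072), -0.22 ± 0.27 for Mrpl57 (0.47), -0.18 ± 0.18 for Mrpl33 (0.47) and -0.15 ± 0.18 for Mrpl10 (0.54).

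A rise was also called when the 2 clones were compared with wildtype without the WT/A-A/A line. In the authors' deposited table of the A/A-WT/A clones against wildtype, which uses the same wildtype libraries, 10 of 77 members were higher and 0 lower, with a background of 19.3% of genes called, 9.05% higher and 10.3% lower. The 10 were Mrps18c, Mrpl38, Mrpl18, Mrpl17, Mrps2, Mrpl39, Mrpl20, Mrpl30, Mrpl22 and Mrpl40, all called in the dual-targeted comparison too, which contains these clones. Their log2 fold changes ran from 0.57 ± 0.23 for Mrpl30 to 1.20 ± 0.34 for Mrps18c in the authors' deposited table, and the median over all 77 was 0.31 against 0.0037 over all genes. The WT/A-A/A line is 1 library without a test of its own. By rebuilt means, 57 members were higher than wildtype in both the clones and that line, 9 were lower in both, 7 were higher in the clones only and 4 in the line only. Both ratios share the wildtype mean, and the line follows by subtraction, so the 2 are not independent. The same counts over all genes were not set beside these. The median log2 ratio of rebuilt means over members was 0.38 in the clones and 0.23 in the line. Without setting the scales between tables these medians were 0.31 and -0.19, and the median of all genes moved to -0.053 and -0.469, so relative to all genes the members stood higher by 0.365 in the clones and by 0.277 in the line.

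The widest gaps between the clones and the line were in 2 genes of chromosome 14. Mrpl52 had rebuilt means of 91.2 in the clones, 210.1 in the WT/A-A/A line and 86.8 in single-targeted lines, against 126 in wildtype cells. Mrpl57 had 69.7 in the clones, 142 in that line and 83.6 in single-targeted lines, against 120.2 in wildtype cells. In both, the clones were below wildtype and the line above. Genes of chromosome 14 were low as a whole in the clones, with a median log2 fold change of -0.34 over 529 genes in the authors' deposited table, and genes of chromosome 8 were low in dual-targeted and single-targeted lines, with medians of -0.27 and -0.13. What part these chromosome-wide values had in the members was not tested. Members on chromosome 14 are Mrpl52, Mrpl57 and Mrps16, and on chromosome 8 Mrpl34 and Mrps31. None of these 5 was called, and over the other 72 members 15 were higher with a median of 0.28.

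In single-targeted lines the mitochondrial ribosomal protein genes did not differ detectably from wildtype. By the DESeq2 test of the authors' deposited table, none of the 77 members was called, where 2.96% of 15030 genes were, 1.49% higher and 1.47% lower. At an unadjusted p under 0.05 the only member was Mrps14, at 0.39 ± 0.32 with an adjusted p of 0.22 in the authors' deposited table. Members above and below 0 numbered 34 and 43, with a median log2 fold change of -0.0041 against 0.0026 over all genes, and the extremes were Mrps14 at 0.39 and Mrpl42 at -0.22, in the authors' deposited table. Median rebuilt log2 ratios over wildtype were 0.32 for dual-targeted lines and -0.02 for single-targeted lines. Without setting the scales they were 0.16 and -0.21, where the medians of all genes were -0.175 and -0.158, so relative to all genes the members stood at 0.337 in dual-targeted and -0.0529 in single-targeted lines. With 2 libraries of different genotype the single-targeted comparison has fewer libraries than the dual-targeted one, and the authors' fold changes were shrunken table by table, so sizes in the different tables are not strictly comparable.

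The direct comparison of dual-targeted with single-targeted lines called 3 members. By the authors' deposited table, 3 of 77 were higher and none lower, a share below the background of 7.06% of genes called, 4.37% higher and 2.69% lower. All the same, 68 of 77 members had a log2 fold change above 0, 21 of them at an unadjusted p under 0.05, and the median was 0.18 against -0.0014 over all genes. Mrpl18 had a log2 fold change of 0.87 ± 0.28 (adjusted p 0.0077), Mrpl20 of 0.63 ± 0.25 (0.026) and Mrps34 of 0.81 ± 0.45 (0.0496) in the authors' deposited table. Mrps34, a small subunit gene of mitochondria only, had rebuilt means of 111 in dual-targeted and 51.8 in single-targeted lines, and 81.1 in wildtype cells, so the single-targeted level was the lowest. Of its annotated exonic bases 63.4% are shared with Mapk8ip3 on the opposite strand and 37.0% with Nme3 on the same strand, and reads of these genes may not have been kept apart.

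The cytosolic ribosomal protein genes had larger median fold changes in dual-targeted lines. In dual-targeted lines against wildtype, 44 of 76 such genes were called higher and none lower, with a median log2 fold change of 0.52, against 15 higher and a median of 0.26 for the mitochondrial ones, in the authors' deposited table. Examples are Rpl30 at 0.82 ± 0.18 (adjusted p 4.21e-05) and Rpl35 at 0.94 ± 0.25 (3.84e-04) in the authors' deposited table. Against single-targeted lines, 39 of 76 cytosolic genes were higher with a median of 0.52, against 3 of 77 mitochondrial ones with a median of 0.18, in the authors' deposited table. In single-targeted lines against wildtype neither group stood above 0, with medians of -0.04 for the cytosolic and -0.0041 for the mitochondrial genes, in the authors' deposited table. The cytosolic genes are counted far more deeply, with a median mean normalized count of 2362 against 236, and standard errors were close, with medians of 0.210 and 0.217. Both gene groups were measured in the same libraries, so they are not independent of each other, and the difference between them was not tested.

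**Figure D3:**
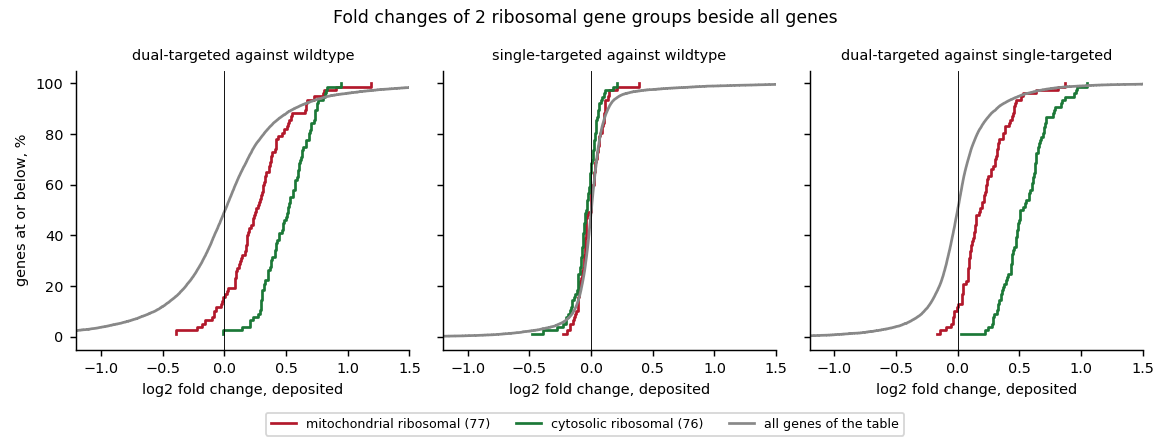
Share of genes at or below each log2 fold change (horizontal axis, authors' deposited tables) for the 77 mitochondrial (red) and 76 cytosolic (green) ribosomal protein genes and for all genes of the table (grey), in 3 comparisons. In dual-targeted lines against wildtype the medians are 0.26, 0.52 and 0.0057, and in single-targeted lines the curves lie close together near 0.

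Calls among other genes of mitochondrial translation went in both directions. In dual-targeted lines against wildtype 3 of 26 assembly factors and 4 of 15 translation factors (26.7%) were called, beside 19.5% of the members and 20.9% of all genes, and the differences between these shares were not tested. Of 5 further mitoribosome proteins without an Mrp symbol (Dap3, Ptcd3, Chchd1, Aurkaip1 and Gadd45gip1) none was called by the DESeq2 test in any of the 4 deposited tables, with 1 at an unadjusted p under 0.05 in dual-targeted lines, Aurkaip1 at 0.46 ± 0.28 (adjusted p 0.12) in the authors' deposited table. Among 26 assembly factors, dual-targeted lines had 2 higher and 1 lower, with a median of 0.10. Rbfa, which acts in small subunit maturation, was at 0.87 ± 0.27 (adjusted p 0.0027), Fastkd2, an RNA-binding protein needed for the large subunit, at 0.43 ± 0.19 (0.049), and Mettl17, which acts on the small subunit, at -0.61 ± 0.27 (0.033), in the authors' deposited table. Of the 15 genes listed as translation factors, a list that also holds genes of other steps, 2 were higher and 2 lower, with a median of -0.06. The higher were Gfm1, an elongation factor, at 0.46 ± 0.18 (adjusted p 0.029) and Slirp, which stabilises mitochondrial mRNA, at 0.59 ± 0.25 (0.028), in the authors' deposited table. The lower were Mtfmt, which formylates the initiator tRNA, at -0.71 ± 0.22 (0.0029) and Oxa1l, which inserts new proteins into the inner membrane, at -0.55 ± 0.26 (0.044), in the authors' deposited table. In dual-targeted lines, 120 of 545 tested genes of chromosome 14 were lower and 45 higher. Of chromosome 8, 265 of 856 were lower and 41 higher. Whether lower calls in these lists fell on these 2 chromosomes was not tested.

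In the clones alone, 1 of 26 assembly factors was higher and 1 lower (7.69% called). Of 15 genes listed as translation factors 1 was higher and 3 lower (26.7% called), beside 19.3% of all genes called. Rbfa at 1.02 ± 0.29 (adjusted p 0.0011) and Slirp at 0.67 ± 0.28 (0.027) were higher in the authors' deposited table. Mettl17 at -0.91 ± 0.29 (0.0027), Oxa1l at -0.97 ± 0.23 (6.42e-05), Mtfmt at -0.75 ± 0.25 (0.0055) and Mtrf1, a release factor relative, at -0.82 ± 0.34 (0.018) were lower in the clones in the authors' deposited table. Of chromosome 14, 203 of 514 tested genes were lower in the clones and 24 higher. Of chromosome 8, 238 of 819 were lower and 34 higher. The chromosomes of the genes in these lists were not set beside their calls, and the part of these 2 chromosomes was not tested. None of these lists had a called gene in single-targeted lines, where 2.96% of all genes were called. Mettl17 had -0.65 ± 0.34 (0.069) and Oxa1l -0.46 ± 0.32 (0.15) there in the authors' deposited table. Among 8 measured regulators of nuclear genes for mitochondrial proteins, Myc was the only one called, at 1.37 ± 0.31 in dual-targeted lines against wildtype (adjusted p 2.43e-05) and 1.22 ± 0.48 against single-targeted lines (0.015) in the authors' deposited table. This is 12.5% of the list in each comparison, beside 20.9% of all genes against wildtype and 7.06% against single-targeted lines. Against wildtype, the authors' deposited table of dual-targeted lines had -0.18 ± 0.16 (0.43) for Nrf1, 0.29 ± 0.17 (0.19) for Gabpa and 0.08 ± 0.16 (0.73) for Yy1. The mitochondrial ribosomal RNA genes mt-Rnr1 and mt-Rnr2 had log2 fold changes of 0.14 ± 0.42 and 0.15 ± 0.43 there, with no p given in the authors' deposited table. In the clones against wildtype the 2 genes had 0.18 and 0.19, with a median SE of 0.47. Both had an unadjusted p under 0.05 by the DESeq2 test there, and neither was called. In single-targeted lines against wildtype they had -0.012 and 0.0059, and neither was called.

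Member genes differ widely in level. Per kilobase of annotated exon, rebuilt wildtype means in the large subunit ran from 24.5 for Mrpl48 to 326 for Mrpl24 and in the small subunit from 23.0 for Mrps33 to 274 for Mrps18b. Per kilobase of gene span the extremes were 3.19 for Mrpl48 and 185 for Mrpl15 in the large subunit, and 0.481 for Mrps28 and 147 for Mrps2 in the small one. Both scales are given because the sources used here do not say whether reads were counted over exons or whole genes. The member with the highest count, Mrpl15, had rebuilt means of 2472 in dual-targeted and 2201 in single-targeted lines, against 2322 in wildtype cells, and a log2 fold change of 0.09 ± 0.16 (adjusted p 0.73) in the authors' deposited table. Across members, the level and the dual-targeted fold change had a Spearman rho of 0.0142 (77 genes of the same libraries, which are not independent replicates).

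Gene length moved with the fold change. Members span a median of 7905 bases, cytosolic ribosomal protein genes 3266 and the protein-coding genes tested 24936, and called members span a median of 6011 against 8656.5 for the others. Across protein-coding genes, length and fold change in dual-targeted lines had a Spearman rho of -0.242 (12656 genes), and across the members -0.277 (77 genes). Against single-targeted lines the values were -0.382 and -0.462, and in single-targeted lines against wildtype 0.137 and 0.235. A smooth trend on length over all genes had a median of 0.0759 at the lengths of the members, and 62 of 77 members lay above it. With the trend taken out, the number of members called in dual-targeted lines was 9 in place of 15, and the median fold change of all members 0.21 in place of 0.26. The share of all genes called without the trend was not set beside this.

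**Figure D4:**
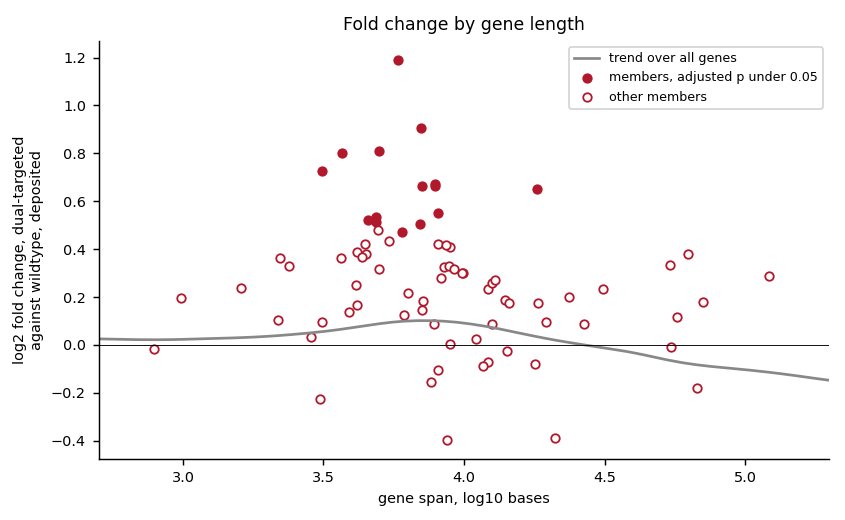
Log2 fold change of dual-targeted against wildtype (vertical axis, authors' deposited table) against gene span in log10 bases for the 77 members, with the trend over all genes as a grey line. Filled points are the 15 called members, and 62 of 77 points lie above the trend.

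Several members start next to a gene on the other strand. An annotated protein-coding neighbour started head to head, within 1000 bases upstream or 300 bases of overlap, for 23 members, and 22 of these partners had a row in the authors' deposited table of dual-targeted against wildtype. Of these partners 3 were higher and 3 lower, where 10.8% of all genes were higher and 10.1% lower, and their median log2 fold change was -0.05 in the authors' deposited table. The difference between members and partners was not tested. Higher were Fau, which encodes a ubiquitin-like protein fused to a cytosolic ribosomal protein and neighbours Mrpl49, at 0.89 ± 0.26, Ndufs6, a complex I subunit beside Mrpl36, at 0.70 ± 0.22, and Psma2, a proteasome subunit beside Mrpl32, at 0.60 ± 0.22, in the authors' deposited table. Lower were Pnpla7 beside Mrpl41 at -1.16 ± 0.22, Wdfy1 beside Mrpl44 at -1.01 ± 0.24 and Ska3 beside Mrpl57 at -0.55 ± 0.21, in the authors' deposited table. Of the 15 called members 5 had such a neighbour, and only for Mrpl36 was the neighbour called. Mrps18c lies 29 bases from Helq, a helicase gene at -0.33 ± 0.18 (adjusted p 0.12), and Mrpl40 lies 175 bases from Hira, which encodes a chaperone of H3.3, at 0.13 ± 0.16 (0.59), in the authors' deposited table. For Mrpl30 the neighbour Mitd1 had -0.06 ± 0.21 (0.85), and for Mrps18b the neighbour Ppp1r10 had 0.36 ± 0.21 (0.14), in the authors' deposited table.

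**Figure D5:**
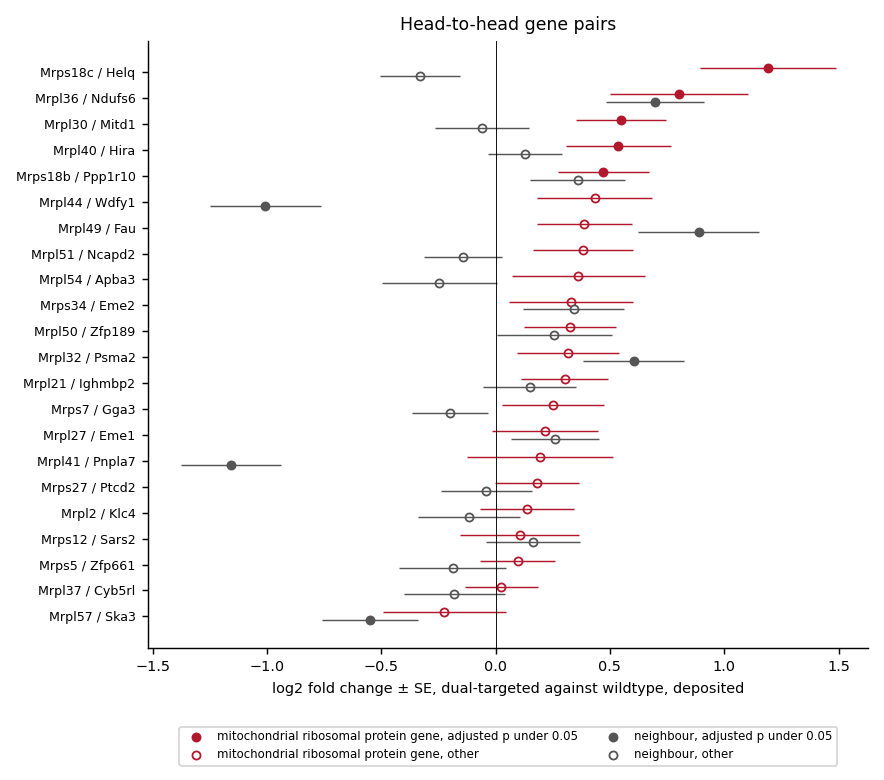
Log2 fold change with its standard error (horizontal axis, authors' deposited table) of dual-targeted against wildtype for 22 members (red) and their head-to-head neighbours (grey), filled where the adjusted p is under 0.05. Neighbours run from -1.16 for Pnpla7 to 0.89 for Fau, and Mrpl36 with Ndufs6 is the only pair with both filled.

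The sources used here do not say whether reads were assigned by strand, which makes overlapping genes uncertain. Annotated exons of 32 members share bases with another gene, among them 4 of the 15 called members. Mrpl18 shares 141 exonic bases with Tcp1 on the opposite strand, a chaperonin gene at 0.35 ± 0.17 (adjusted p 0.079) in the authors' deposited table. Mrps18c shares 250 bases with Gm43511 on the same strand, an unnamed transcript at 0.58 ± 0.26 (0.037) in the authors' deposited table, Mrps18b shares 638 with the antisense Gm16279 and Mrpl36 shares 30 with Ndufs6. The other 11 called members share none, and over the 45 members without shared bases the median log2 fold change in dual-targeted lines was 0.19.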

How the data were processed

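Per the submitters' processing notes, the builds were GRCm38.p6 and mm10, and the tools included deepTools, DESeq2, featureCounts, SAMtools and STAR, with no versions. The annotation, the counted feature and the use of strand are not given in the sources used here. The deposited files were 4 tables of the authors' comparisons, normalized separately. Per the file headers, each holds a mean normalized count (a signal averaged over libraries by the authors), a log2 fold change, its standard error (a score here), a p-value and an adjusted p-value. The deposited log2 fold change is read as shrunken, because 100% of called genes had one nearer to 0 than their p and error would give. The authors' test was used as deposited, with a call where the adjusted p was below 0.05, because no value per library was used and no refit was possible. The depth of each library is unknown, and precision is known only as the deposited standard errors. Nothing says that the mutant libraries came from separate cultures beyond being separate lines.

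Computed here were counts and medians of members, motif matches, length relations and rebuilt group means. The 4 deposited means, over known numbers of libraries, give the group means by subtraction after scales of 0.983, 1.06 and 0.957 between tables. These scales were set over 11099 genes whose mean count reached 50 in all 4 tables, and were chosen after the data were seen. For 100% of 2504, 351, 836 and 2284 called genes the rebuilt means had the sign of the deposited fold change, so a positive value means higher in the mutant lines, or in dual-targeted over single-targeted ones. Rebuilt means came out below 0 for 2 genes and for 0 members.

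Positions, spans and exonic lengths came from GENCODE mouse release 21 (GRCm38), which held 98.7% of symbols, and promoters from RefSeq. The length trend is a lowess curve with a fraction of 0.3. Software was matplotlib 3.10.9, numpy 2.4.6, pandas 2.3.3, scipy 1.17.1 and statsmodels 0.14.6 in Python 3.11.15, and the adjustments were tested on simulated data. Named were all called members, the 5 highest and 5 lowest fold changes, 3 members on each side of the threshold, the S18 family, the most and least abundant per length and called members of the other lists. Other members, neighbours and regulators were named for their role or position after values were seen. The motif letters were shortened after longer forms had been searched. The members and lists were chosen with earlier results of these data known. Alternatives were a stricter threshold, other adjustments and centrings, a minimum mean count, the length trend, leaving out members on chromosomes 8 and 14, no rescaling and a shorter promoter window. Leaving out members that share exonic bases was chosen after seeing the data.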

Additional observations from a re-analysis of the deposited data

Results flagged for a closer look

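Members called in dual-targeted against single-targeted lines differ between the 2 mutant groups by a test of the difference itself. These were Mrpl18, at a log2 fold change of 0.87, Mrps34, at 0.81, and Mrpl20, at 0.63, in the authors' deposited table. Mrpl18 and Mrpl20 were also called in dual-targeted lines against wildtype. Mrps34 was not, with 0.33 ± 0.27 (SE, adjusted p 0.27) against wildtype, and it shares most of its exonic bases with 2 neighbours.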

How the results depend on the processing

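At an adjusted p under 0.01, members called numbered 8 in place of 15 in dual-targeted lines against wildtype, 1 in place of 3 against single-targeted lines and 5 in place of 10 in the clones. With the trend on gene length taken out the counts were 9, 1 and 7, the last with 6 higher and 1 lower. Without members that share exonic bases with another gene they were 11, 1 and 8, counted over 45 members in place of 77. The share of all genes called under the stricter threshold or without the trend was not set beside these counts. Whether members lost more calls than other genes is thus not known. No member was called in single-targeted lines against wildtype under any of the 7 alternatives run for that count. The WT/A-A/A line had a median rebuilt log2 ratio over wildtype of 0.23, and -0.19 with no rescaling, where the median of all genes was -0.469. With no rescaling the dual-targeted median was 0.16 in place of 0.32 and the single-targeted one -0.21 in place of -0.02. In the 250 bases before the start only, the ETS share was 25% in place of 36.8% and the YY1 share 7.35% in place of 17.6%. In that window the shares among genes of the dual-targeted table were 15.7% for ETS and 5.16% for YY1. The other median log2 fold changes and ratios kept their direction under the alternatives run for them. Limits are the missing values per library, mutant lines sequenced once each and unknown strand. Leaving out single libraries could not be run for the same reason. No paired analysis was possible because the tables hold no values per library.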
